A study of Canis lupus familiaris with 15 samples.

Results

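BIRC5, CDC25A, UBE2S, TYMS, ASPM, CENPS, H2AZ1 and RAN are 8 genes of cell division, chosen from a list of genes linked to the anaphase-promoting complex (APC/C), DNA synthesis, the spindle and the centromere. They are 8 of the 1357 genes that carry a symbol on the canine array used here, which measures 36604 targets in all. Each gene was found through the transcript identifier printed for its probe, and all 8 were found.

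The study asked whether the response of canine lymphoma to treatment goes together with APC/C activity, and measured RNA on 15 one-colour Agilent arrays from 5 dogs, named MalcolmX, Jake, Rosco, Dog Y and Thai. The first tumour samples were biopsies and later ones were fine needle aspirates. The tumour of Thai is labelled as a drug-sensitive lymphoma (1 biopsy). The original tumours of MalcolmX, Jake, Rosco and Dog Y are labelled as drug-resistant (4 biopsies, 1 a dog), and those of Rosco and Dog Y are also described as taken before treatment. MalcolmX gave a further aspirate of the resistant tumour after metformin, a drug used against diabetes. Rosco gave 7 further samples: a post-mortem tumour sample, 3 aspirates after metformin and relapse, 1 aspirate in remission after metformin, 1 aspirate after chemotherapy had failed and before metformin, and a second aspirate labelled as an original resistant tumour. The titles of the 3 relapse aspirates call them samples without remission, while their source and condition labels say relapse, which is the name used here. Skin biopsies of MalcolmX and Rosco were the control tissue (2 arrays). The labels give no breed, age or dose, and 9 arrays, the 3 relapse arrays included, are labelled as coming from the single dog Rosco, so that p-values among them measure no spread between dogs of one group.

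The APC/C is a ubiquitin ligase that marks proteins for destruction so that a cell can leave mitosis and stay in G1. UBE2S is the E2 enzyme that lengthens the ubiquitin chains the complex builds. BIRC5 (survivin), a subunit of the chromosomal passenger complex and an inhibitor of cell death, and CDC25A, the phosphatase that switches on cyclin-dependent kinases, are broken down through it. TYMS makes thymidylate for DNA synthesis, ASPM sits at the spindle poles, CENPS is a histone-fold protein of the kinetochore, H2AZ1 is a histone variant, and RAN is the small GTPase that drives nuclear transport and spindle assembly. In lymphoid tissue transcripts of this kind are abundant in dividing cells.

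Levels are log2 of the scanner's processed signal minus the 75th percentile of the array, so that a level of 0 is that percentile and a step of 1 is a 2-fold step. On each array 66.8% to 75.9% of the probes passed the scanner software's test of being well above background, and no spot was saturated. BIRC5, UBE2S, TYMS, ASPM, CENPS, H2AZ1 and RAN were well above background on all 15 arrays. CDC25A was so on 9 arrays; it was not on the biopsies of MalcolmX and Rosco, both skin biopsies, the failed-chemotherapy aspirate and the second resistant aspirate, where its values have no order. The precision is limited by the number of arrays. Levels of different genes come from different probes and are not set against each other.

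Several arrays stood apart from what their labels say. The biopsy of Rosco and the second resistant aspirate had summed exocrine gland markers of 8.85 and 9.20, against 0.28 to 5.53 on the other 13 arrays. Their summed B cell markers were -0.39 and -0.92. MS4A1 (CD20), a defining B cell gene, was not well above background on either of these arrays, although both are labelled as lymphoma. On the other 4 biopsies, the MalcolmX aspirate, the relapse aspirates and the post-mortem sample the B cell sum lay between 4.24 and 5.35. Only 3 of 14 B cell markers (MS4A1, CD40 and BCL6) carry a symbol here. The skin biopsies had keratinocyte sums of 7.67 and 10.32, and also skeletal muscle sums of 8.13 and 6.71. The B cell sum was 2.75 on the skin of MalcolmX, with all 3 markers well above background, and -0.59 on that of Rosco. The failed-chemotherapy and remission aspirates had 2.47 and 2.07.

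The failed-chemotherapy and remission aspirates also differed from the other Rosco arrays in a way their label does not give. The 7 other Rosco arrays and the 6 arrays of the other dogs were separated by at least 1 log2 unit at 44 probes, and the remission and failed-chemotherapy aspirates lay on the Rosco side at 34.1% and 25.0% of them. When each of the other tumour arrays of Rosco was left out in turn and looked up the same way, it lay on the Rosco side at 93.6% to 100% of the probes, and the skin biopsy of Rosco at 57.3%. The target DN745755 was picked for the widest gap among the probes lower on the 7 other Rosco arrays. There the 2 aspirates had 0.87 and 0.98, the 7 other Rosco arrays -7.71 to -4.69, and the other dogs 0.81 to 2.53. These probes were looked up after the values had been seen, and which dog the 2 aspirates come from was not tested. They form the earlier side of the comparison with the relapse aspirates, which cannot be made without both and is given below without each. In bulk samples fewer cells of a type and less RNA per cell cannot be told apart.

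Across the 15 arrays 7 of the 8 genes, all but CENPS, varied in a like way. They were high on the relapse aspirates of Rosco and the biopsy of Thai, and low on skin and on the 2 gland-rich Rosco arrays. For CDC25A the readings on skin and on the gland-rich arrays were not well above background. The biopsy of Dog Y was also high for all of the 7 but CDC25A. The mean of the standardised levels of the 7 genes that were bright on all arrays (all but CDC25A) was 1.07, 1.03 and 1.1 on the relapse aspirates, 0.79 on the biopsy of Dog Y and 0.63 on that of Thai. It was -0.82 on the biopsy of Rosco, -1.09 on the second resistant aspirate, and -1.01 and -1.28 on the skin of MalcolmX and Rosco. These 7 genes spanned 5.17-fold (TYMS) to 14.1-fold (BIRC5) between their lowest and highest array. Their span was larger than that of 50.6% (TYMS) to 73.9% (BIRC5) of 872 named genes bright on all arrays.

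**Figure D1:**
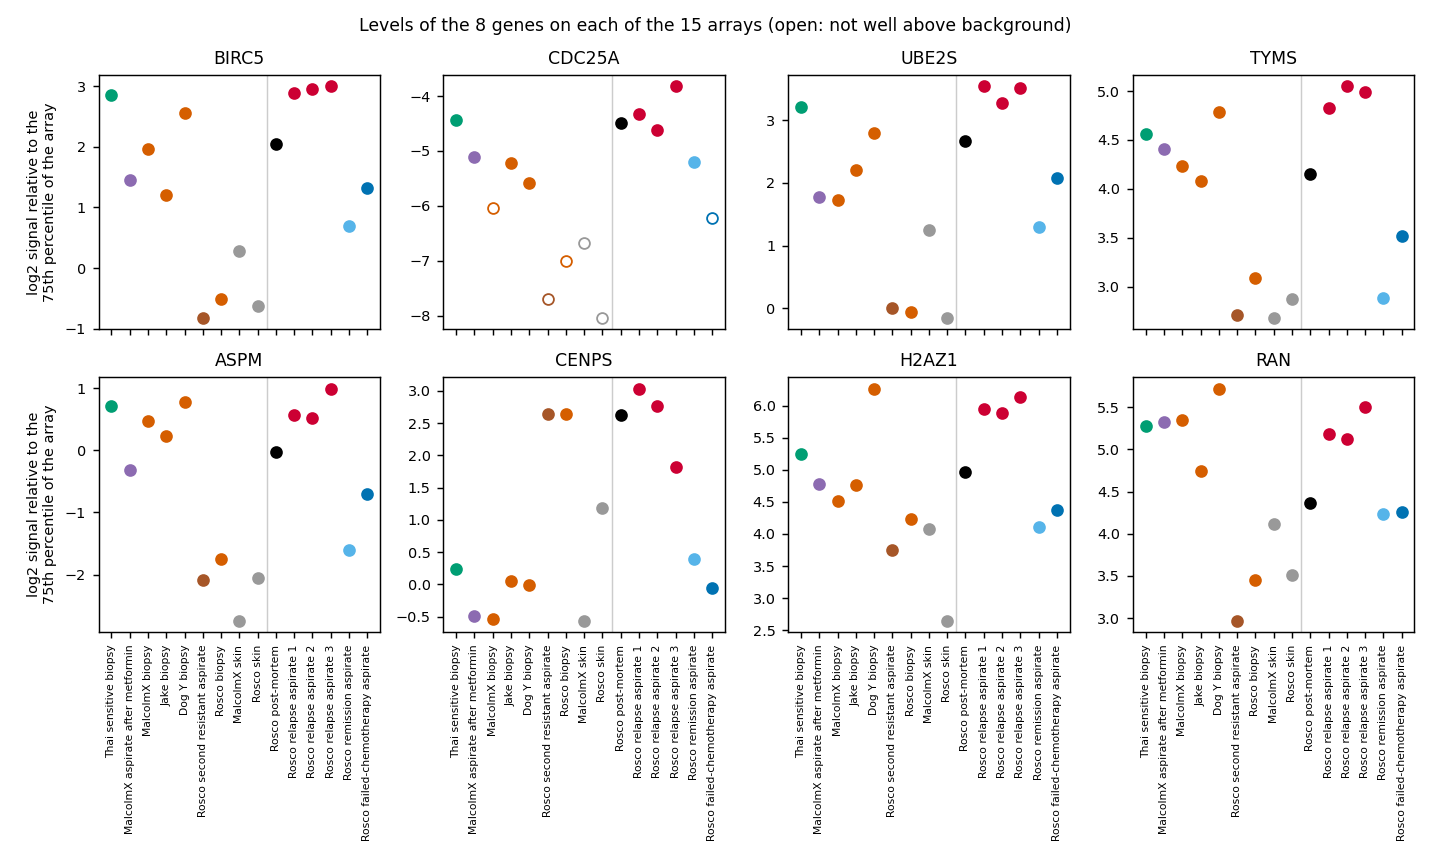
Level of each of the 8 genes (log2 processed signal relative to the 75th percentile of the array) on each of the 15 arrays, 1 point per array. Filled points are well above background and open points are not; the grey line separates the arrays right of it, which are the later Rosco samples, from the sensitive biopsy, MalcolmX, Jake, Dog Y, gland-rich Rosco and skin arrays. The 3 relapse aspirates sit above the remission and failed-chemotherapy aspirates in all 8 panels, and CENPS departs from the order of the others on the 2 gland-rich Rosco arrays, where it is at 2.64.

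UBE2S, the enzyme of the APC/C itself, had 3.54, 3.27 and 3.51 on relapse aspirates 1, 2 and 3, against 1.30 on the remission and 2.07 on the failed-chemotherapy aspirate. The post-mortem sample had 2.67. The sensitive biopsy of Thai had 3.21, against 1.72, 2.20, -0.06 and 2.80 on the resistant biopsies of MalcolmX, Jake, Rosco and Dog Y, and skin of MalcolmX and Rosco had 1.25 and -0.15. Only the biopsy of Rosco, the second resistant aspirate (0.00) and the skin of Rosco lay near or under 0, and the sensitive biopsy was above all 4 resistant ones. The MalcolmX aspirate after metformin had 1.78, close to the biopsy of that dog. UBE2S has 2 probes, whose levels had a Pearson correlation of 0.95 over the 15 arrays (9 of them from Rosco).

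BIRC5 had 2.89, 2.95 and 3.00 on the relapse aspirates, against 0.69 on the remission and 1.32 on the failed-chemotherapy aspirate. The post-mortem sample stood between them at 2.05. The biopsy of Thai had 2.86, against 1.96, 1.21, -0.51 and 2.56 on the resistant biopsies of MalcolmX, Jake, Rosco and Dog Y, and 0.29 and -0.62 on skin of MalcolmX and Rosco. The relapse aspirates and the Thai biopsy were the highest arrays and differed by less than the spread among the resistant biopsies. The MalcolmX aspirate had 1.46 and the second resistant aspirate -0.82, the lowest of all.

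CDC25A, the other APC/C substrate, was the only one of the 8 genes not well above background on all 15 arrays. It had -4.32, -4.62 and -3.82 on the relapse aspirates, against -5.21 on the remission aspirate and -6.23, not well above background, on the failed-chemotherapy aspirate. The post-mortem sample had -4.50 and the Thai biopsy -4.44, against -5.22 on the biopsy of Jake and -5.58 on that of Dog Y, the resistant biopsies that were above background. The MalcolmX aspirate had -5.11. The relapse aspirates, the Thai biopsy and the post-mortem sample were its highest arrays.

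TYMS, the thymidylate enzyme and the target of fluoropyrimidine drugs, had 4.83, 5.05 and 4.99 on the relapse aspirates, against 2.88 on the remission and 3.52 on the failed-chemotherapy aspirate. The post-mortem sample had 4.15. The biopsy of Thai had 4.56, against 4.23, 4.08, 3.09 and 4.79 on the resistant biopsies of MalcolmX, Jake, Rosco and Dog Y, and skin had 2.68 and 2.87. Skin, the second resistant aspirate (2.71) and the remission aspirate formed the low end, and all 4 resistant biopsies were above both skin biopsies. The MalcolmX aspirate had 4.41.

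ASPM, the spindle pole gene, had 0.57, 0.52 and 0.99 on the relapse aspirates, against -1.61 on the remission and -0.71 on the failed-chemotherapy aspirate. The post-mortem sample had -0.02. The Thai biopsy had 0.71, against 0.47, 0.23, -1.75 and 0.78 on the resistant biopsies of MalcolmX, Jake, Rosco and Dog Y, and skin of MalcolmX and Rosco had -2.74 and -2.06. The 4 resistant biopsies again did not overlap with skin, but the biopsy of Rosco was close to the skin of the same dog and the other 3 were far higher. The MalcolmX aspirate had -0.31 and the second resistant aspirate -2.09.

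CENPS, the kinetochore gene, was high on Rosco arrays of each tissue, with the exception of 2 aspirates. It had 1.19 on the skin of Rosco and 1.82 to 3.03 on the 6 other Rosco arrays outside the remission and failed-chemotherapy aspirates, with 2.64 on both gland-rich arrays. The remission and failed-chemotherapy aspirates had 0.40 and -0.05. The 6 arrays of the other dogs lay between -0.56 and 0.24, skin and tumour alike. Its correlation with each of the other 7 genes over the 15 arrays lay between -0.31 and 0.17, while the other 7 correlated with one another at 0.78 to 0.97 (21 pairs, median 0.89). The pairs with CDC25A, the lowest (with RAN) included, rest in part on the 6 arrays where CDC25A was not well above background. Without CDC25A the lowest was 0.81, for H2AZ1 and RAN. These correlations are descriptions, since 9 arrays share a dog and all share the scaling.

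**Figure D2:**
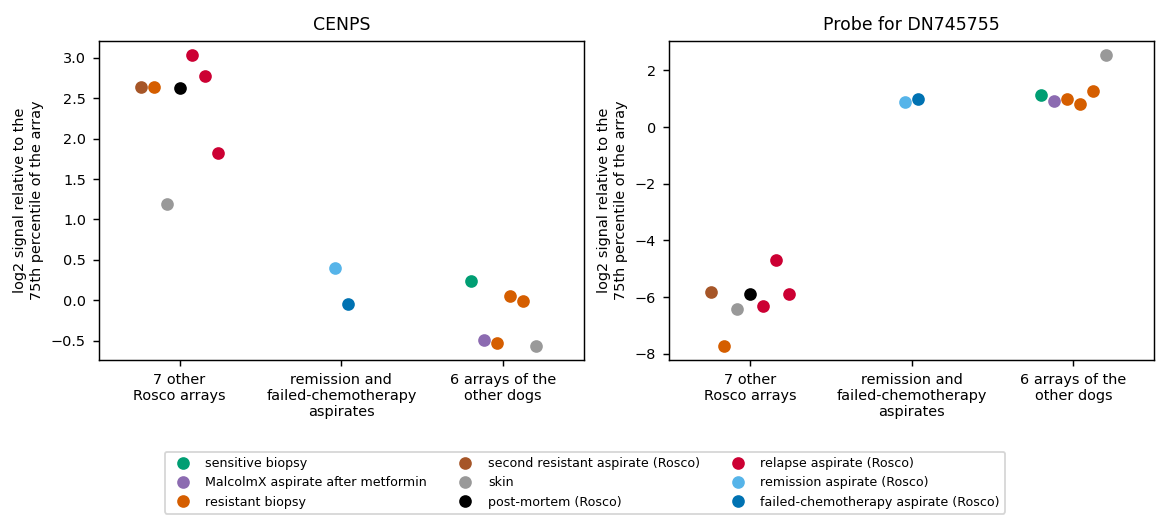
Level of CENPS (left) and of the probe for DN745755 (right), as log2 processed signal relative to the 75th percentile of the array, for the 7 other Rosco arrays, the remission and failed-chemotherapy aspirates labelled Rosco, and the 6 arrays of the other dogs; 1 point per array. CENPS lies between 1.19 and 3.03 in the 7 other Rosco arrays, and the 2 aspirates lie near the range of the other dogs in both panels.

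H2AZ1, the histone variant, had 5.95, 5.88 and 6.14 on the relapse aspirates, against 4.10 on the remission and 4.38 on the failed-chemotherapy aspirate. The post-mortem sample had 4.97. The Thai biopsy had 5.25, against 4.51, 4.76, 4.23 and 6.26 on the resistant biopsies of MalcolmX, Jake, Rosco and Dog Y, and skin of MalcolmX and Rosco had 4.07 and 2.65. The biopsy of Dog Y was the highest array and the skin of Rosco the lowest, with all 4 resistant biopsies above both skin samples. The MalcolmX aspirate had 4.77 and the second resistant aspirate 3.75.

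RAN, the GTPase, had 5.18, 5.13 and 5.50 on the relapse aspirates, against 4.24 on the remission and 4.26 on the failed-chemotherapy aspirate. The post-mortem sample, at 4.37, lay close to the remission and failed-chemotherapy aspirates. The Thai biopsy had 5.28, against 5.35, 4.74, 3.45 and 5.72 on the resistant biopsies of MalcolmX, Jake, Rosco and Dog Y, and skin of MalcolmX and Rosco had 4.12 and 3.51. The biopsy of Rosco lay below both skin biopsies, and the second resistant aspirate (2.97) was the lowest array. The MalcolmX aspirate had 5.33.

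The 9 groups ordered by mean level gave 8 steps a gene. Set against the pooled SD of the replicated groups (6 degrees of freedom), 2 steps were larger for TYMS, 1 for ASPM, CENPS and RAN, and 0 for BIRC5, UBE2S and H2AZ1. CDC25A, not well above background on all arrays, is left out of this count. For CENPS that step was 2.00, between the relapse aspirates and the mean of the resistant biopsies, against a pooled SD of 1.19. That mean joins the biopsy of Rosco at 2.64, as high as the relapse aspirates, with MalcolmX at -0.53, Jake at 0.06 and Dog Y at -0.01. For BIRC5 the order was relapse aspirates (2.95), sensitive biopsy (2.86), post-mortem sample (2.05), MalcolmX aspirate (1.46), failed-chemotherapy aspirate (1.32), resistant biopsies (1.30), remission aspirate (0.69), skin (-0.16) and second resistant aspirate (-0.82). No neighbours in that order differed by more than the pooled SD of 0.98. That SD joins unlike spreads: 1.33 among the resistant biopsies of 4 dogs, 0.65 in skin and 0.05 among the relapse aspirates of Rosco.

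The relapse aspirates of Rosco were compared with the failed-chemotherapy and remission aspirates, which asks how the tumour after relapse differed from samples labelled as earlier ones of the same dog. All 8 genes rose, CDC25A with the reservation given below. BIRC5 averaged 2.95 ± 0.05 in relapse (SD, n = 3) and 1.00 ± 0.45 earlier (SD, n = 2), a difference of 1.94 log2 units (SE 0.23, 3.84-fold, limma with Benjamini-Hochberg adjusted p = 0.00223). In that comparison 33.7% of the 25382 targets tested passed an adjusted p of 0.05, 17.4% higher and 16.3% lower, and the median of all targets was -0.08, against a median of 1.76 over the 8 genes.

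H2AZ1 averaged 5.99 ± 0.13 in relapse and 4.24 ± 0.20 earlier, a rise of 1.75 (SE 0.19, limma adjusted p = 0.00165). UBE2S rose by 1.75 (SE 0.27, adjusted p = 0.0051), TYMS by 1.76 (SE 0.24, adjusted p = 0.00337) and ASPM by 1.86 (SE 0.32, adjusted p = 0.00719). The smallest rise, 1.02 (SE 0.19, adjusted p = 0.00999), was that of RAN. CDC25A rose by 1.46 (SE 0.38, adjusted p = 0.0283), with 1 of the 2 earlier arrays above background. It entered the test through the relapse arrays alone, so the size of its rise rests in part on a background reading, and normexp background correction gave 0.07 (adjusted p = 0.8). CENPS had the largest difference of the 8, at 2.36 (SE 0.39, 5.15-fold, adjusted p = 0.00634). Outside the 2 earlier arrays, it was higher on the Rosco arrays (1.19 to 3.03) than on those of the other dogs (-0.56 to 0.24). The part of this in its rise was not tested. Every relapse array was above both earlier arrays for each of the 8, as for 28.8% of all targets tested.

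The marker genes moved with this result. The B cell sum was 4.24 to 4.88 in relapse and 2.07 to 2.47 earlier, and of the 3 named B cell markers MS4A1 rose by 1.70 (SE 0.22, limma adjusted p = 0.00278) and CD40 by 2.59 (SE 0.29, adjusted p = 0.00187). The third, BCL6, was not well above background on any relapse array. It was at least 2.42-fold lower in relapse, taking the lowest signal counted as well above background on the relapse arrays as its level there. BCL6 entered the test through the earlier aspirates alone, so its limma adjusted p of 0.00239 rests on background readings in relapse. All 6 named T and NK cell markers were lower in relapse, and 4 of them passed the threshold, where 16.3% of all targets tested were called lower. Their sums were 0.76 to 1.71 in relapse against 3.94 to 4.52 earlier. The fibroblast sum was 4.70 to 4.92 in relapse and 7 to 7.24 earlier, and the monocyte and macrophage sum was 3.90 to 4.17 in relapse and 2.92 to 2.96 earlier. The keratinocyte sums (1.44 to 2.12 in relapse, 2.20 to 2.24 earlier) and the gland sums (1.28 to 1.47 in relapse, 1.58 to 1.77 earlier) did not overlap either. The part of these markers in the rise of the 8 genes was not tested.

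The calls depended on which arrays entered the fit. Because the relapse and earlier arrays did not overlap, the direction within each slide or without single arrays could not turn. With slide as a block the 8 genes differed by 1.01 (RAN) to 2.40 (CENPS), within slide 3 by 0.92 to 3.08 and within slide 4 by 0.99 to 2.37. A fit of all 15 arrays with 1 mean a group called 0 of the 8 (limma adjusted p = 0.0607 for TYMS to 0.372 for RAN), and without the failed-chemotherapy aspirate 5 of 8 passed, CDC25A, CENPS and RAN missing the threshold. Without the remission aspirate RAN missed it (adjusted p = 0.0738), and without relapse aspirate 1 or 3 CDC25A did (adjusted p = 0.0687 and 0.059).

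**Figure D3:**
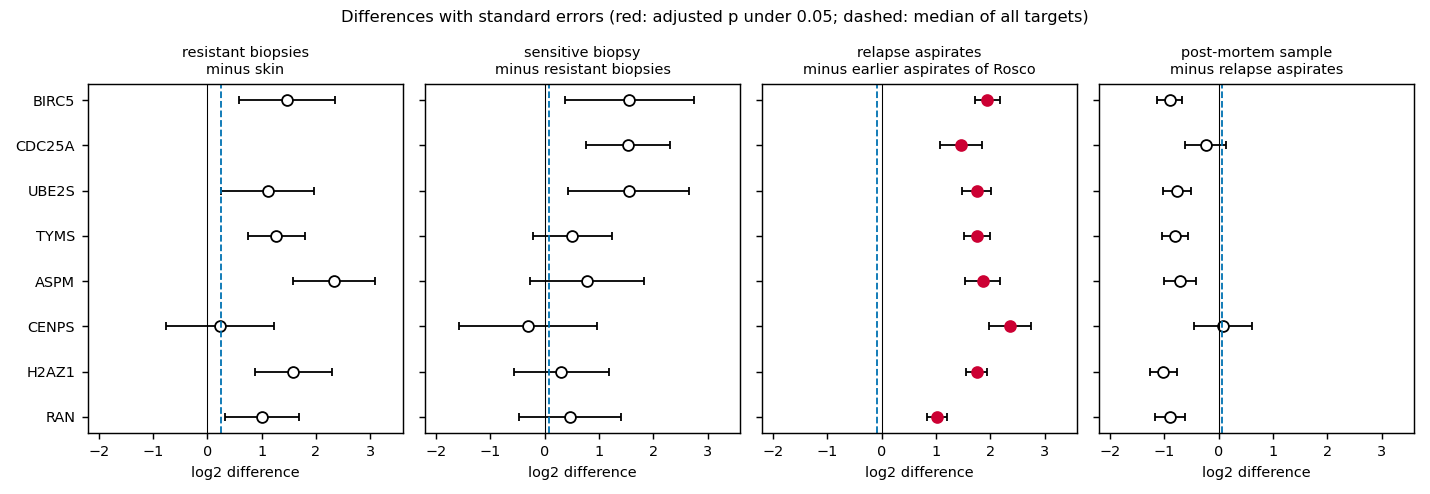
Difference in log2 level for each gene in the 4 tested comparisons; points are the differences, bars ± 1 standard error of the limma fit, red points have an adjusted p under 0.05, and the dashed line is the median of all targets tested. All 8 genes are red in the comparison of relapse with earlier aspirates, none is in the other 3, and CDC25A has no point against skin because it was not tested there.

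Genes of the cell cycle that are not among the 8 were looked up from fixed lists of APC/C subunits, regulators and substrates, DNA synthesis, spindle, cyclin, histone and proliferation genes. The lists share little with the named genes of this array: of 14 APC/C core subunits none carries a symbol, of 16 activators, E2 enzymes and inhibitors only UBE2S does, and of 37 substrates only BIRC5 and CDC25A do. Over all lists 13 further genes were named. In relapse 9 of the 13 passed the threshold as higher and 2 as lower, where 17.4% of all targets tested were called higher and 16.3% lower. CCNB3, a B-type cyclin, rose by 2.98 (SE 0.38, limma adjusted p = 0.00271), MYC, a driver of growth, by 1.94 (SE 0.24, adjusted p = 0.00255) and RCC1, the exchange factor that loads RAN with GTP on chromatin, by 1.57 (SE 0.20, adjusted p = 0.00282). NPM1, the nucleolar protein nucleophosmin, rose by 1.48 and TUBG1, the gamma-tubulin of spindle poles, by 1.13. NME1, HMGB1, TFRC and MDM2 rose by 1.31, 1.02, 1.03 and 0.66. The 2 that fell are inhibitors of cyclin-dependent kinases: CDKN1B (p27) averaged 0.11 ± 0.11 in relapse and 1.42 ± 0.26 earlier, a difference of -1.31 (SE 0.20, adjusted p = 0.00479), and CDKN2B (p15) differed by -0.85 (SE 0.22, adjusted p = 0.0288), with 1 of the 3 relapse arrays not well above background. CDKN2B was tested through the earlier aspirates alone, so the size of its fall rests in part on a background reading. CCND1 (0.10) and HMGN2 (0.36) did not pass the test. Their median was 1.03, against -0.08 for all targets.

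The post-mortem sample of Rosco was set against the relapse aspirates. It was lower for 7 of the 8 genes, and for 6 of them lower than all 3 relapse arrays. H2AZ1 had 4.97 post mortem and 5.99 ± 0.13 in relapse (SD, n = 3), a difference of -1.02 (SE 0.25, limma adjusted p = 0.215). BIRC5 and RAN each differed by -0.90, TYMS by -0.81, UBE2S by -0.77 and ASPM by -0.71, with adjusted p from 0.228 to 0.354. None passed the test, and the share of targets called was 0 percent of 27124, with 4128 at an unadjusted p under 0.05. The median over the 8 was -0.79, against 0.06 for all targets, and 29.3% of all targets had the post-mortem array below all relapse arrays.

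CENPS differed by 0.08 in the same comparison and CDC25A by -0.24, both within the range of the relapse aspirates. CENPS turned to -0.40 with slide as a block and to -0.27 without relapse aspirate 3. The single post-mortem array was assumed to vary like the relapse arrays. The fibroblast sum was 6.53 post mortem, against 4.70 to 4.92 in relapse. The keratinocyte (2.22), gland (1.52) and monocyte and macrophage (4.19) sums lay just above the relapse ranges and the T and NK cell sum (0.67) just below. The part of these markers was not tested. The B cell sum, at 4.55, lay inside the range of the relapse aspirates. The 13 other cell cycle genes had a median of -0.33, and those that differed most were NPM1 (-0.85), NME1 (-0.79), CDKN2B (0.62, with 1 relapse array not well above background) and HMGN2 (-0.62), none past the threshold (adjusted p = 0.25 to 0.38).

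The sensitive biopsy of Thai was set against the 4 resistant biopsies, the comparison nearest to the question of treatment response. UBE2S and its fellow APC/C-linked genes BIRC5 and CDC25A were higher in the sensitive biopsy than in any resistant biopsy. BIRC5 had 2.86 in the sensitive biopsy and 1.31 ± 1.33 in the resistant ones (SD, n = 4), a difference of 1.56 (SE 1.19, limma adjusted p = 1.0). UBE2S differed by 1.55 (SE 1.11) and CDC25A by 1.53 (SE 0.77), both also with an adjusted p of 1.0. CDC25A was not well above background on 2 of the 4 resistant biopsies and entered the test through the Thai array alone, so its size rests in part on background readings. The single Thai array was assumed to vary like the resistant biopsies, from whose spread the SE, interval and p come. The 95% interval of the difference ran from -2.24 to 5.36 for BIRC5, from -2.0 to 5.10 for UBE2S and from -0.93 to 3.99 for CDC25A, so no direction is shown.

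The other members overlapped between the groups. ASPM differed by 0.78, TYMS by 0.51, RAN by 0.47, H2AZ1 by 0.31 and CENPS by -0.30. The test called 0 of the 8 genes, and of all 26372 targets 0 percent, with 786 at an unadjusted p under 0.05. For 20.4% of targets the sensitive biopsy was above all 4 resistant ones, against 3 of the 8 genes, and the medians were 0.64 for the 8 and 0.08 for all targets. The Thai biopsy was scanned on another day and slide than the 4 resistant biopsies, so scan day and response cannot be told apart.

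Without the gland-rich biopsy of Rosco the differences lay between 0.01 (RAN) and 1.18 (CDC25A), their median was 0.31, and CENPS turned to 0.40. The Thai biopsy also had a T and NK cell sum of 3.81, against 0.19 to 1.12 on the resistant biopsies, and a monocyte and macrophage sum of 4.32, against 3.24 to 4.12. Its fibroblast sum of 5.31 and gland sum of 0.28 lay below those of the resistant biopsies, at 5.67 to 8.30 and 0.98 to 8.85. The part of these markers was not tested. Of the 13 other cell cycle genes none passed, and the 4 with the largest differences were TUBG1 (1.01), MYC (0.96), TFRC (0.94) and NME1 (0.92).

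The resistant biopsies were compared with skin, the control tissue. The 7 genes other than CDC25A were higher on average in the biopsies, and TYMS, ASPM and H2AZ1 did not overlap. ASPM averaged -0.07 ± 1.14 in the biopsies (SD, n = 4) and -2.40 ± 0.48 in skin (SD, n = 2), a difference of 2.33 (SE 0.76, limma adjusted p = 0.291). H2AZ1 differed by 1.58 (SE 0.71, adjusted p = 0.351) and TYMS by 1.27 (SE 0.52, adjusted p = 0.335). None of the 7 genes tested was called, against 0.434% of the 23953 targets, of which 2 (0.00835% of those tested) were higher and 102 (0.426%) lower. Groups did not overlap in the higher direction for 18.1% of all targets, and the medians were 1.27 for the 7 genes tested and 0.25 for all targets.

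BIRC5 differed by 1.47 (SE 0.88), UBE2S by 1.11 (SE 0.86), RAN by 1.00 (SE 0.68) and CENPS by 0.23 (SE 1.00), with adjusted p from 0.415 to 0.907. CDC25A was not well above background on either skin biopsy and on 2 of the 4 resistant biopsies, so it was not tested and no difference is given. Without the gland-rich biopsy of Rosco, ASPM (2.89, limma adjusted p = 0.0196) and TYMS (1.59, adjusted p = 0.0457) passed the threshold, the count of targets called went to 3128, and CENPS turned to -0.47. Within slide 1 these 7 genes differed by 0.40 (UBE2S) to 2.49 (ASPM), and within slide 2 by -1.72 (CENPS) to 2.58 (BIRC5). Of the arrays compared, slide 2 holds only the MalcolmX biopsy and the Rosco skin. Slide 1 holds the MalcolmX skin and the biopsies of Jake, Rosco and Dog Y, so dog and tissue differ together within each slide. The keratinocyte sum was 1.24 to 4.06 in the biopsies and 7.67 to 10.32 in skin. The fibroblast sum, 5.67 to 8.30 in the biopsies and 8.39 to 9.30 in skin, and the skeletal muscle sum, -3.14 to 1.13 in the biopsies and 6.71 to 8.13 in skin, were also lower in every biopsy. The T and NK cell sum, 0.19 to 1.12 in the biopsies and -1.84 to -1.33 in skin, and the monocyte and macrophage sum, 3.24 to 4.12 in the biopsies and 1.65 to 2.34 in skin, were higher in every biopsy. The B cell sum, -0.39 to 5.35 in the biopsies and -0.59 to 2.75 in skin, overlapped. The part of these markers was not tested. Among the 13 other cell cycle genes, 11 were higher and 2 lower on average with none called, the largest differences being CDKN2B (-2.72), CCNB3 (2.43), NME1 (1.91) and NPM1 (1.66). CDKN2B was not well above background on 2 of the 4 biopsies and was tested through skin alone, so its place in that order rests in part on background readings.

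Single arrays were also set side by side, with no test. From Rosco the remission aspirate after metformin and the failed-chemotherapy aspirate before it differed by -0.90 for ASPM, -0.77 for UBE2S, and -0.63 for both BIRC5 and TYMS. H2AZ1 (-0.28) and RAN (-0.02) differed less, and CENPS was 0.45 higher in remission. CDC25A had -5.21 in remission and was not well above background before it. The median over the 8 genes, CDC25A included, was -0.46. The targets well above background on both arrays had a median of 0.03, and 4.52% of them were past 2-fold. In MalcolmX the aspirate after metformin and the biopsy before it differed by -0.79 for ASPM, -0.50 for BIRC5, 0.25 for H2AZ1, 0.18 for TYMS and 0.06 for UBE2S. There the median was 0.05 over the 8 genes and 0 of them was past 2-fold, against 9.07% of the targets well above background on both arrays. CDC25A, counted among the 8, was not well above background on the biopsy. The aspirate and the biopsy also differ in how they were taken.

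Between the gland-rich samples of Rosco, the second resistant aspirate against the biopsy, these genes differed little. The differences were -0.49 for H2AZ1, -0.48 for RAN, -0.38 for TYMS, -0.34 for ASPM, -0.31 for BIRC5, 0.05 for UBE2S and 0.00 for CENPS. The median was -0.36 for the 8, and 0 of the 8 were past 2-fold. The targets well above background on both arrays had a median of 0.03, and 8.45% of them were past 2-fold. CDC25A, counted among the 8, was not well above background on either array.

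**Figure D4:**
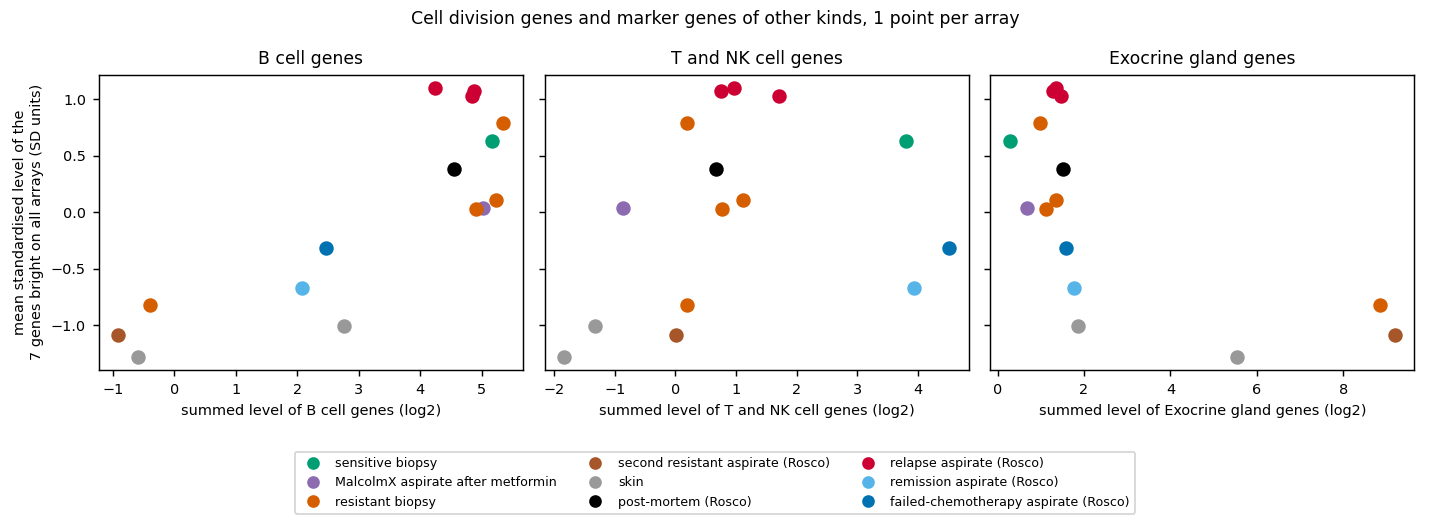
Mean standardised level of the 7 genes bright on all arrays (vertical axis, SD units) against the summed level of B cell, T and NK cell and exocrine gland markers (horizontal axes, log2 relative to the 75th percentile), 1 point per array, coloured by group. The arrays with a B cell sum above 4 lie at 0.03 or higher on the vertical axis, and the 6 arrays with a lower sum lie at -0.32 or lower.

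The mean over the 7 genes bright on all arrays was set beside the B cell sum. That sum adds the signals of MS4A1, CD40 and BCL6, so its brightest gene weighs most. On the MalcolmX biopsy CD40 had 4.84, MS4A1 3.18 and BCL6 -6.21. The 9 arrays with a B cell sum above 4 had mean standardised levels of 0.03 to 1.1, and the other 6, with sums of -0.92 to 2.75, had -1.28 to -0.32. CENPS went the other way on the 2 gland-rich arrays. The T and NK cell sum did not follow the 7 genes: it was 4.52 on the failed-chemotherapy aspirate, whose mean level was -0.32. Among the 9 arrays the B cell sum did not order the cell division genes: the relapse aspirates, with sums of 4.24 to 4.88, had the highest values, and the MalcolmX biopsy, with a sum of 5.23, had 0.11. The fibroblast sum of these 9 arrays tended to be lower where the genes were higher. It was 4.70 to 4.92 on the relapse aspirates, 5.67 on the biopsy of Dog Y and 5.31 on that of Thai. On the post-mortem sample it was 6.53, with a mean level of 0.38. The biopsy of Jake and the MalcolmX aspirate and biopsy had 7.71 to 8.30, with mean levels of 0.03 to 0.11. The part of cell makeup in the levels of the 8 genes was not tested.

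The named genes most like the mean standardised level of the 7 genes bright on all arrays (CENPS included, CDC25A not) were found by Pearson correlation with it over the 15 arrays, among 865 named genes bright on all of them. The 10 highest included CCNB3 (0.97), PABPN1 (0.96), MYCBP (0.96), NME2 (0.95), GALK1 (0.95), ANP32A (0.95), NME1 (0.94), MX1 (0.94) and CASP2 (0.94). CCNB3, the B-type cyclin, had 0.64, 0.86 and 0.67 on the relapse aspirates, -2.90 on the remission and -1.61 on the failed-chemotherapy aspirate, and -2.72 and -3.28 on skin. MX1, a protein induced by interferon, had 5.49 to 5.74 in relapse, against 2.46 in remission and 1.59 after failed chemotherapy.

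The least like were ANXA2 (-0.97), INPP5A (-0.94), TXNRD3 (-0.93), DHRS4 (-0.91) and ABCC5 (-0.91). ANXA2, a membrane-binding annexin, had 0.19, -0.12 and -0.83 on the relapse aspirates, 3.07 on the remission and 3.37 on the failed-chemotherapy aspirate, and 4.99 and 6.10 on skin. Of the 10 most like genes 7 stayed in the list after quantile normalization, and 8 without the 2 gland-rich arrays, a choice made after seeing the data. Without the 2 skin biopsies 5 of the 10 stayed. With 15 arrays, 9 of them from Rosco, these correlations are a description.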

How the data were processed

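Total RNA of 15 samples was hybridised to one-colour Agilent canine arrays and read with Feature Extraction 11.0.1.1, per the file headers. The intensity used is the processed signal the authors deposited, background-corrected by that software, per the file headers. The deposited series table holds the spot median minus the local background median: 678300 of 678300 values were equal within 0.01, with column medians of 42.0 to 147.0. From the intensity, log2 minus the 75th percentile of the array was computed, outlier spots (2 to 50 an array) were dropped, spots of a probe averaged, and the brightest probe kept per target. Of 43603 probes, 5.01% carry a symbol here. Targets were tested if all arrays of 1 or both groups had them well above background, with limma 3.58.1 in R 4.3.3 (lmFit and eBayes, two-sided, Benjamini-Hochberg over all targets, threshold 0.05), on the arrays compared. The procedure was tested on simulated data. The labels do not say that the samples of a group are separate extractions, so p-values measure the spread between these arrays. Named besides the 8 genes are the 10 most (1 of them is not reported here) and 5 least correlated named genes, the listed cell cycle genes past the threshold (or the 4 largest differences) and cell type markers. The 8 genes and all lists were chosen with earlier results of these data known. Replicate numbers do not pair the samples, and dog was tried as a block.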

Additional observations from a re-analysis of the deposited data

Results flagged for a closer look

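After minus before metformin, the differences of UBE2S, TYMS and H2AZ1 had opposite signs in the samples labelled Rosco and MalcolmX. Those in MalcolmX were small with the scaling and probes used, but not for TYMS and H2AZ1 under normexp. UBE2S differed by -0.77 in Rosco and 0.06 in MalcolmX, and TYMS by -0.63 and 0.18, in log2 units. H2AZ1 differed by -0.28 in Rosco and 0.25 in MalcolmX. In MalcolmX 88%, 64.7% and 52.3% of targets well above background on both arrays differed by more than UBE2S, TYMS and H2AZ1. In Rosco 8.6%, 12.7% and 41.7% did. BIRC5 (-0.63 in Rosco, -0.50 in MalcolmX) and ASPM (-0.90, -0.79) were lower after metformin in both. RAN (-0.02, -0.02) hardly differed in either, and had 0.02 and 0.08 with quantile normalization. CENPS was 0.45 higher after metformin in Rosco. In MalcolmX it hardly differed, at 0.04 and, with normexp, -0.05. Each value rests on 1 array before and 1 after, the sample before metformin is an aspirate in Rosco and a biopsy in MalcolmX, and the difference between the dogs was not tested. The UBE2S value of MalcolmX was -0.03 with the series table and 0.20 with normexp. Those of TYMS and H2AZ1 in MalcolmX were 0.68 and 0.69 with normexp. The second TYMS probe had 3.20 on the MalcolmX aspirate and 2.60 on the biopsy. Both Rosco aspirates lay off the Rosco side at most of the probes that set the other Rosco arrays apart from the other dogs. Which dog they come from was not tested. Among the 4 resistant biopsies 0 of the 8 genes had an array whose gap to its neighbour passed Dixon's 95% critical value, CENPS at 2.64 on the biopsy of Rosco included.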

How the results depend on the processing

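Under the settings that can change a difference, 99 of 99 values of the 8 genes kept their direction for relapse against earlier aspirates, 105 of 108 for biopsies against skin (without CDC25A), 74 of 75 for sensitive against resistant and 70 of 75 for post-mortem against relapse. In relapse the directions by slide and without single arrays could not turn, since the groups did not overlap. Those that turned were CENPS against skin without the biopsy of Rosco (-0.47) or the skin of MalcolmX (-0.65, of -0.65 to 1.1 without single arrays) and, as a value with no test, within slide 2 (-1.72), CENPS in the sensitive comparison without the Rosco biopsy (0.40), and post mortem CENPS under median scaling (-0.16), with slide as a block or within slide 3 (-0.40) and without relapse aspirate 3 (-0.27, of -0.27 to 0.33 without single arrays), and CDC25A under normexp (0.03). Median scaling added 0.26 to every difference against skin, 0.19 in relapse and -0.24 post mortem. Targets called against skin numbered 104, and 8 with normexp, 55 with the series table, 66 without a filter, 6 with a filter on every array, 653 with all 15 arrays, 32 with slide as a block, and 5 to 3128 when single arrays were left out, with 0 to 2 of the 8 genes; without a MalcolmX or Rosco skin array they were 327 and 321. With dog as a replicate block on the MalcolmX and Rosco arrays they were 0, with 0 of the 8 genes (replicate numbers are only names here, so no other pairing was possible). With all 15 arrays 11 targets were called in the sensitive comparison. In relapse 8555 targets were called (4410 higher and 4145 lower), and 1127 with all 15 arrays, with 0 of the 8 genes, and 3769 to 9760 (5 to 8 of the genes) when single arrays were left out; median scaling gave 5569 higher and 3344 lower. The median of the 8 was 1.66 with quantile normalization, 1.95 with median scaling, 1.51 within slide 3, 2.00 within slide 4 and 1.53 to 2.11 without single arrays. Post mortem 0 targets were called, against 390 with normexp, 14 with the mean over probes and 0 to 423 without single relapse arrays; the median of the 8 was -0.65 with quantile normalization, -1.03 with median scaling and -0.83 to -0.76 without single arrays. Targets past 2-fold numbered 1122 for remission against failed chemotherapy (1738 with the series table, 258 with normexp), 2103 for the MalcolmX pair (7257 with normexp) and 2022 for the gland-rich pair (3306 with normexp). The split of the gland-rich pair, 1890 higher and 132 lower, was 1184 and 587 with quantile normalization and 786 and 918 with median scaling; the remission pair's, 755 and 367, was 607 and 536, and 593 and 527. CDC25A, which was not well above background on all arrays, missed the threshold in relapse with normexp (0.07, limma adjusted p = 0.8) and with the series table (1.57, adjusted p = 0.157). The cause was not tested. Scan day could not be used as a block, since each comparison lies in 1 day or has its groups on different days.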
